A study of Saccharomyces cerevisiae with 37 samples.

Results

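The comparison was the first transcriptional response to copper of a budding yeast strain that carries a 25x array of GFA1. Its members are 8 of the 37 libraries of the series, chosen by strain and time: the 4 libraries taken at 15 and 20 min after copper sulfate, against the 4 taken at 0 and 5 min. Both array replicates are labelled as strain BMY3661, a haploid MATa strain of the BY4741 background in which the CUP1 promoter drives the array, although the count columns of replicate 2 carry a different strain number from those of replicate 1. The wild type (WT), strain BMY1051 of the same background and mating type, was sampled at the same times and is used only to show where the array strain differed, with 4 libraries at 15 and 20 min and 5 at 0 and 5 min. All cultures were grown in rich medium, washed, and held in minimal medium lacking copper for about 2 h before copper was added. The copper dose is 500 uM in the treatment note but appears with the unit mM in the note on growth. The 0 min libraries are untreated, and the 5 min libraries had already met copper. Later samples of an untreated culture were not analysed here, so the effects of copper and of time in minimal medium cannot be told apart. The 4 libraries of a group are 2 cultures at 2 times. Whether the 2 array cultures came from separate isolates is not given in the sources used here. The p-values of the main comparison therefore measure the spread between libraries of the array strain, with those of the other times included. The main fit has no term for culture, so repeated samples of the same culture were treated as independent.

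In yeast, copper is bound by the transcription factor Cup2 (also called Ace1), which then activates the metallothionein genes CUP1 and CRS5. Gfa1 makes glucosamine-6-phosphate, the first committed precursor of chitin, a cell wall polymer that is deposited in larger amounts when the wall is damaged. Cells that meet stress commonly switch on genes under Msn2 and Msn4, which bind the stress response element, and lower the many genes for ribosome assembly, whose promoters often carry the PAC and RRPE elements.

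Promoter sequences of genes that the results turn on are shown first. They come from the RefSeq reference of build R64 (the build named in the submitters' processing notes) and span 350 to 51 bases before the coding sequence, 5′ to 3′ on the coding strand. Only the elements named for each promoter are marked. Unmarked matches are 2 stress response elements in CRS5, 1 PAC in GLC3, 1 Cup2 site each in ENP2 and NOG1, and 2 heat shock elements (GAANNTTC) in LTV1. Cup2 matches are in capitals in the promoter of CUP1-1, the type of promoter that drives the array (chrVIII:212771-213070, minus strand, 5 matches), and of CRS5 (chrXV:388863-389162, plus strand, 1 match).
CUP1-1: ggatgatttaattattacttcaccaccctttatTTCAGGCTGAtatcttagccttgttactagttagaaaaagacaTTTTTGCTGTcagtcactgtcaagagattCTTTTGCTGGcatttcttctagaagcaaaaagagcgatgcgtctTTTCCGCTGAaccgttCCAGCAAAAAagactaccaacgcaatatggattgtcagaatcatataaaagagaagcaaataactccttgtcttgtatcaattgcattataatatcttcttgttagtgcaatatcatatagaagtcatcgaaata
CRS5: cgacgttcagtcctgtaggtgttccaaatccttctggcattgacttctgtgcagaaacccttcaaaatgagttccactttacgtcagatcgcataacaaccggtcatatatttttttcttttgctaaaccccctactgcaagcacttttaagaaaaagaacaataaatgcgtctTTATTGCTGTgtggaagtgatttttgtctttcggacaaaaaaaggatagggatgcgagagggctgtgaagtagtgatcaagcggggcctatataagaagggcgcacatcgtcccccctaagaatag

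The trehalose gene TSL1 had the largest called rise after GFA1, and GLC3 makes glycogen. Capitals mark the stress response element AGGGG on either strand in TSL1 (chrXIII:70274-70573, plus strand, 4 matches) and GLC3 (chrV:132770-133069, plus strand, 2 matches).
TSL1: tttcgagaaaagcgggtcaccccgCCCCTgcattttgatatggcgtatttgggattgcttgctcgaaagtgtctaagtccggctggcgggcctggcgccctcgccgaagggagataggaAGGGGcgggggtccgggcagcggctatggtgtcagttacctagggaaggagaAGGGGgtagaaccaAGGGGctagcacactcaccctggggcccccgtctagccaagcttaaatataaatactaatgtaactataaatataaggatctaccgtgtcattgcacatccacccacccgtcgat
GLC3: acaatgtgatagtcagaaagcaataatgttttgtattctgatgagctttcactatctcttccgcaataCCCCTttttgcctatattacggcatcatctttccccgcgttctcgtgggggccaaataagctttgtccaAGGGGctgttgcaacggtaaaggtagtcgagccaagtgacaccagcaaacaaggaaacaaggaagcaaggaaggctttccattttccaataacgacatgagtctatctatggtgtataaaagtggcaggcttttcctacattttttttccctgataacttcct

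The 3 assembly genes that fell are shown with PAC (GATGAG) and RRPE (AAAATTTT) in capitals on either strand. ENP2 (chrVII:781417-781716, plus strand) had 4 PAC matches, 3 of which overlap, and 1 RRPE match. NOG1 (chrXVI:370628-370927, plus strand) had 2 PAC matches and 1 RRPE match. LTV1 (chrXI:176431-176730, plus strand) had 1 of each.
ENP2: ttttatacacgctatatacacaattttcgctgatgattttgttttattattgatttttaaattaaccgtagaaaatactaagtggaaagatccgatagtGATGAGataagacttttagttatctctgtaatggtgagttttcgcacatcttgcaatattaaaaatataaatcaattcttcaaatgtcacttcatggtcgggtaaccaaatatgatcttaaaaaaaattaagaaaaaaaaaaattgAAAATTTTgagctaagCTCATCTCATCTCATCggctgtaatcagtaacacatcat
NOG1: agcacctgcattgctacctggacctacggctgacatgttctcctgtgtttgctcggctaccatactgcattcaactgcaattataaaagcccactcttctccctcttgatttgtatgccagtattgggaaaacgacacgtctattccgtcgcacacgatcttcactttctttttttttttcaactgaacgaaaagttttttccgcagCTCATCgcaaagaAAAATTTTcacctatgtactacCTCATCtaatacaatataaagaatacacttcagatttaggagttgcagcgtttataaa
LTV1: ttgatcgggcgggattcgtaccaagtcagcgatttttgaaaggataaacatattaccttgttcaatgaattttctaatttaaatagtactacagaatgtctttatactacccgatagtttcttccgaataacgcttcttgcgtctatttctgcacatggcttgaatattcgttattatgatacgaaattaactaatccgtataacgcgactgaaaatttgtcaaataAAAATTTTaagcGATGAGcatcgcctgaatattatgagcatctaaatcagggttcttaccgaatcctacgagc

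RNA was measured by 3′-end sequencing (Lexogen QuantSeq), and the deposited table holds whole-number read counts for each gene. Gene counts per library were 555208 to 641502 at 15 and 20 min and 590522 to 662865 at 0 and 5 min, and 5568 to 5604 genes had at least 1 count. Levels are given as CPM, the counts scaled to a common library size, in which 3 counts (the floor used here, for counting error only) are worth 4.53 to 5.40. For the labelled mating type, all 7 a-cell markers were tested and none was called, with MFA1, the a-factor gene, at 1914 counts over the 4 libraries at 15 and 20 min and 2070 over the 4 at 0 and 5 min. Of the alpha-cell markers, MF(ALPHA)1 had 0 counts in both groups, MF(ALPHA)2 had 0 at 15 and 20 min and 1 at 0 and 5 min, and STE3 had 1 in each group, while SAG1, the alpha-agglutinin gene, had 74 at 15 and 20 min and 73 at 0 and 5 min (log2 0.06, adjusted p = 0.968). Summed over the a-cell list, the level was 2360 to 2623 CPM at 15 and 20 min and 2357 to 2542 CPM at 0 and 5 min.

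At 15 and 20 min GFA1 itself had the largest called rise, genes of trehalose, glycogen, general stress and the cell wall were among the others that rose, and 50 of the genes that fell were ribosome assembly factors. Of 4823 genes tested, 126 were called (2.61%) by edgeR's quasi-likelihood test with an adjusted p (Benjamini-Hochberg) under 0.05. Of these 43 rose (0.892%) and 83 fell (1.72%). Changes were modest in size: the median absolute log2 fold change of called genes was 0.56, and 8 risers and 2 fallers had an absolute value of at least 1. In 110 of the 126 the 4 libraries of one group did not overlap the 4 of the other. Over all genes tested 3.15% had all 4 libraries at 15 and 20 min above and 4.06% had all 4 below. The same libraries chose the 126 genes, so separation of the groups, here and for single genes below, is a description and no separate support. The number of calls differed between fits. It was 2 of 4995 (0.04%) when all 37 libraries entered the fit, GFA1 higher (0.02%) and MRD1 lower (0.02%). It was 2 against 5 min alone (GFA1 and ENP2) and 46 to 164 when 1 of the 8 libraries was left out. Without culture 1 it was 12 and without culture 2 it was 26. The direction was the same for every fitted gene of the 126 in each of these fits. These fits share libraries with the fit that chose the genes, so a kept direction is no separate support.

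GFA1, which encodes glutamine:fructose-6-phosphate amidotransferase (YKL104C, chromosome XI, 243220 to 245373), had 8788 and 9075 CPM (15 min) with 10860.4 and 11918 CPM (20 min), against 1705 and 1893.5 CPM (0 min) with 2767 and 3199 CPM (5 min). All 4 later libraries lay far above all 4 earlier ones, and the 5 min libraries were already above the 0 min libraries. GFA1 averaged 10160.3 ± 1488 CPM at 15 and 20 min and 2391 ± 710.2 CPM at 0 and 5 min (SD, n = 4 each, as for all means ± SD below unless stated), a 4.25-fold rise (log2 2.09, SE 0.16, adjusted p = 4.05e-10). In raw counts the transcript took 0.860% to 1.17% of gene counts at 15 and 20 min and 0.164% to 0.310% at 0 and 5 min. Counts are per gene, so transcripts of the array are not told apart from those of any other GFA1 copy. Within the 0 and 5 min group, GFA1 was 0.73 higher at 5 min than at 0 min on the log2 scale (adjusted p = 0.0101) and was the only gene called of 4823 (0.0207%). That call ended without either 0 min library or without 5 min replicate 2, fits in which 1 time has a single library that is assumed to vary like the other time groups. Between 20 and 15 min its log2 difference was 0.35, with adjusted p = 1, and no gene was called by edgeR or DESeq2 (193 genes had an unadjusted p under 0.05 in edgeR). An open reading frame on the opposite strand, YKL104W-A, overlaps GFA1 and had 0 counts at 15 and 20 min and 1 at 0 and 5 min.

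**Figure D1:**
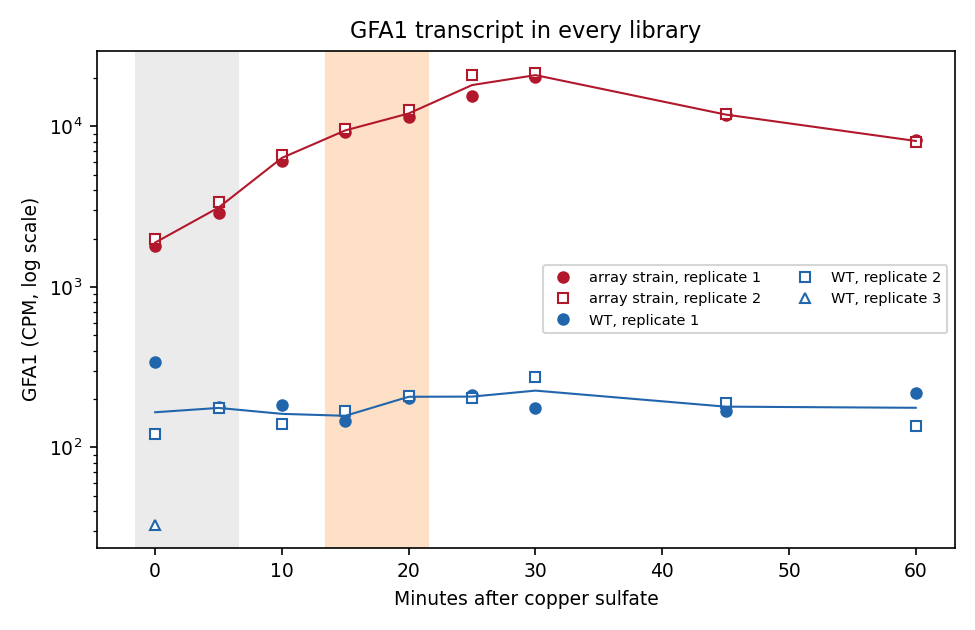
GFA1 transcript (CPM, log axis, scaled over all 37 libraries) against minutes after copper sulfate, with 1 point per library, lines through the means, the array strain in red and WT in blue. The orange band marks 15 and 20 min and the grey band 0 and 5 min. Array libraries stood at 9192 to 12618 CPM in the orange band and at 1798 to 3356 CPM in the grey band. WT libraries stood at 146 to 211 CPM in the orange band and at 32.8 to 343 CPM in the grey band.

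Genes that followed GFA1 most closely were listed by the Pearson correlation of mean log2 CPM over the 9 times of the array strain, as a description with no test. They were CMK2, a calmodulin-dependent protein kinase (r = 0.985), DIA1 (0.981), MRX18 (0.979), NCW2, a cell wall protein (0.975), and PRB1, the vacuolar proteinase B (0.975). All 5 were among the called risers, beside 0.892% of all genes tested. Further down the list, PIL1 (0.959) and SNU71 (0.957) were not called. The times that chose the called genes are among these 9 times, and GFA1 is itself a called riser. The overlap is therefore no separate support. DIA1 overlaps an open reading frame on the opposite strand, and the strand setting of the counting was not given.

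The copper genes themselves gave 1 call. CUP1-1 and CUP1-2, the metallothionein genes, had 0 counts in all 37 libraries; they are near-identical copies, and reads that align to both are not counted, so their level was not measured here. CRS5, the other copper metallothionein gene and a pseudogene in the annotation, had 36.3 and 36.6 CPM (15 min) with 57.5 and 51.5 CPM (20 min), against 18.8 and 24.8 CPM (0 min) with 21.7 and 29.7 CPM (5 min). The groups did not overlap, and CRS5 rose 1.91-fold (log2 0.93, SE 0.24, adjusted p = 0.0274), a call that ended when any 1 of 5 of the 8 libraries was left out (adjusted p 0.0681 to 0.135). The other 8 tested genes of 9 in the copper detoxification and delivery list were not called; SOD1, copper/zinc superoxide dismutase, was at 3871 ± 94.8 CPM at 15 and 20 min and 3692 ± 219.6 CPM at 0 and 5 min (log2 0.07, adjusted p = 0.824). Of 8 copper uptake genes under Mac1, 4 were tested and none was called. FRE1, a metal reductase of that list, averaged 24.5 ± 8.46 CPM at 15 and 20 min and 40.7 ± 6.99 CPM at 0 and 5 min (log2 -0.71, adjusted p = 0.214).

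Of the trehalose and glycogen genes, 4 of 16 tested rose, none fell, and the median log2 fold change was 0.59, beside -0.00 over all genes. TSL1, a subunit of trehalose synthase, had 58.8 and 140.0 CPM (15 min) with 69.4 and 119.6 CPM (20 min), against 18.8 and 31.4 CPM (0 min) with 31.7 and 49.0 CPM (5 min). The groups did not overlap, and at each of the 4 times culture 2 held the higher value. TSL1 rose 2.99-fold (log2 1.58, SE 0.27, adjusted p = 0.00188). TPS2, the trehalose-phosphate phosphatase, averaged 203 ± 34.7 CPM at 15 and 20 min and 107 ± 41.2 CPM at 0 and 5 min (log2 0.93, adjusted p = 0.00441). TPS2 was already 0.99 higher at 5 min than at 0 min on the log2 scale, though not called there. GLC3, the glycogen branching enzyme, averaged 64.3 ± 7.54 CPM at 15 and 20 min and 35.6 ± 11.2 CPM at 0 and 5 min (log2 0.87, adjusted p = 0.0126). NTH1, a trehalase that breaks trehalose down, rose as well (log2 0.67, adjusted p = 0.0196).

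Of 30 tested general stress genes under Msn2 and Msn4, 5 rose and none fell, with a median log2 fold change of 0.53. They were TSL1, GPD1, HSP42, PNC1 and STF2. GPD1, which makes glycerol-3-phosphate for glycerol synthesis, averaged 113 ± 15.8 CPM at 15 and 20 min and 60.4 ± 23.7 CPM at 0 and 5 min (log2 0.91, adjusted p = 0.00485), with overlapping groups because 5 min replicate 1 had 93.3 CPM and 15 min replicate 1 had 90.0 CPM. HSP42, a small heat shock protein, had log2 0.70 (adjusted p = 0.0306). Both GPD1 and HSP42 were already 0.83 higher at 5 min than at 0 min on the log2 scale, though not called there. The catalase gene CTT1 was at 34.8 ± 7.32 CPM at 15 and 20 min and 20.0 ± 6.89 CPM at 0 and 5 min and was not called (log2 0.81, adjusted p = 0.129), but it was against 0 min alone (log2 1.26, adjusted p = 0.0393). With 1 library left out, 2 to 11 general stress genes and 2 to 7 trehalose and glycogen genes were called. Against 5 min alone no gene of either list was called, with median log2 fold changes of 0.33 (general stress) and 0.39 (trehalose and glycogen). Of 31 tested chaperone genes under Hsf1, 1 rose (HSP42, which is also in the general stress list) and 1 fell, and of 27 peroxide and thiol defence genes none was called. The gene that fell was HSC82, an Hsp90 chaperone, at 4165 ± 98.7 CPM at 15 and 20 min and 5025 ± 265 CPM at 0 and 5 min (log2 -0.27, adjusted p = 0.0332). HSC82 has a near-identical partner, HSP82, and reads that align to both are not counted.

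**Figure D2:**
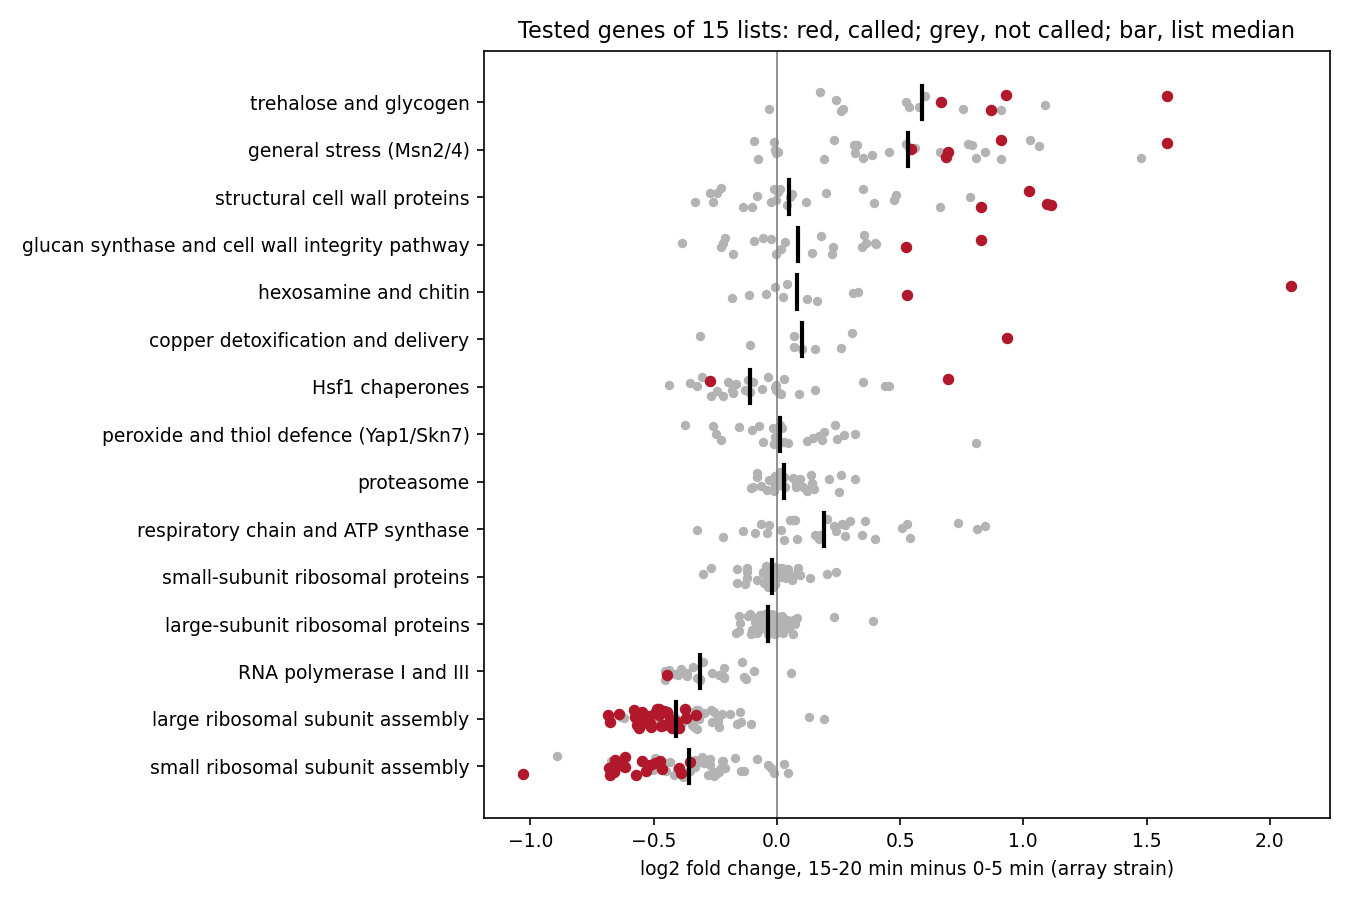
Log2 fold change of 15 and 20 min over 0 and 5 min in the array strain (horizontal axis) for each tested gene of 15 lists (vertical axis). Red points are called genes, grey points are not, and black bars are list medians; the trehalose and glycogen median is 0.59, and the medians of the large and small subunit assembly lists are -0.41 and -0.36.

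Wall genes changed in part. Of 28 tested structural wall proteins, 4 rose and none fell: SED1, PST1, PIR1 and NCW2. The list median was a log2 fold change of 0.05, with 17 genes positive and 11 negative. With 1 library left out 3 to 5 of the list were called, and without culture 1 only 1. None was called against 5 min alone or with all 37 libraries. SED1, an abundant stress-induced wall glycoprotein, had 88.2 and 167 CPM (15 min) with 102 and 121 CPM (20 min), against 34.4 and 52.9 CPM (0 min) with 58.3 and 80.5 CPM (5 min). No library of either group reached the other group, and SED1 rose 2.14-fold (SE 0.22 on the log2 scale, adjusted p = 0.00485). PST1, a wall protein raised when the wall is damaged, averaged 68.8 ± 20.2 CPM at 15 and 20 min and 33.6 ± 2.93 CPM at 0 and 5 min (log2 1.02, adjusted p = 0.0056). PIR1, which is linked to wall glucan, had log2 1.11 (adjusted p = 0.0365) at low levels of 29.5 ± 8.28 CPM at 15 and 20 min and 13.7 ± 4.72 CPM at 0 and 5 min.

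In the hexosamine and chitin list, 2 of 12 tested genes rose, GFA1 and CHS1, and the median log2 fold change was 0.08. CHS1, the chitin synthase that repairs the wall at cell separation, had 509 and 439 CPM (15 min) with 467 and 471 CPM (20 min), against 319 and 288 CPM (0 min) with 385 and 317 CPM (5 min). The groups did not overlap (log2 0.53, SE 0.10, adjusted p = 0.00364). Of 22 genes for glucan synthase and the wall integrity pathway, NCW2 (log2 0.83, adjusted p = 0.00761) and GSC2, a stress-induced glucan synthase subunit (log2 0.52, adjusted p = 0.038), rose. That list had a median log2 fold change of 0.09. Of 13 tested zinc genes under Zap1, 1 rose: ZRT2, the low-affinity zinc transporter, averaged 276 ± 39.3 CPM at 15 and 20 min and 175 ± 24.0 CPM at 0 and 5 min (log2 0.66, adjusted p = 0.002).

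**Figure D3:**
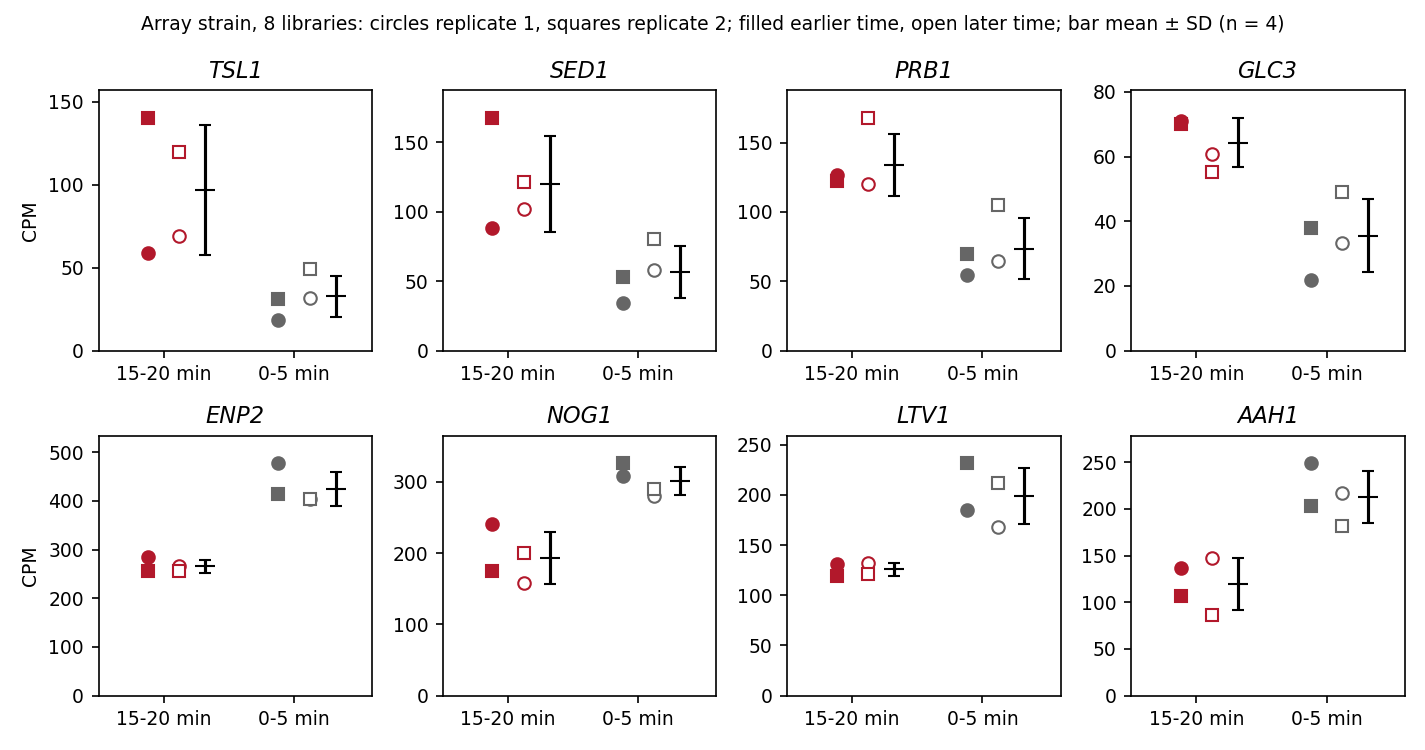
CPM (vertical axes, from 0) of 8 called genes in the 4 array libraries at 15 and 20 min (left, red) and the 4 at 0 and 5 min (right, grey), with means ± SD (n = 4). Circles are replicate 1 and squares replicate 2, filled at the earlier time of each window. In every panel the groups stand apart, which the rule for naming genes required of all shown but NOG1.

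Ribosome assembly genes made up most of the genes that fell. Of 61 tested factors for the small subunit 19 fell and none rose (median log2 -0.36), and of 69 for the large subunit 31 fell and none rose (median log2 -0.41). Together the lists hold 130 tested genes, and their 50 fallers are 60.2% of the 83 genes that fell. ENP2, a nucleolar protein needed for 18S rRNA processing, had 285 and 256 CPM (15 min) with 266 and 256 CPM (20 min), against 477 and 415 CPM (0 min) with 403 and 404 CPM (5 min). The groups did not overlap, and the log2 fold change was -0.68 (SE 0.09, adjusted p = 8.92e-05). It was -0.67 in culture 1 and -0.68 in culture 2.

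MRD1, which acts on pre-rRNA for the small subunit, averaged 261 ± 17.0 CPM at 15 and 20 min and 414 ± 39.9 CPM at 0 and 5 min (log2 -0.66, adjusted p = 0.00118). LTV1, a factor for small subunit maturation and export, averaged 126 ± 6.63 CPM at 15 and 20 min and 199 ± 28.1 CPM at 0 and 5 min (log2 -0.66, adjusted p = 0.002). Its groups did not overlap, although the log2 change was -0.42 in culture 1 and -0.88 in culture 2. FAL1, a helicase of the small subunit pathway, had the largest fall of the called assembly genes, at 20.4 ± 4.59 CPM at 15 and 20 min and 41.9 ± 10.8 CPM at 0 and 5 min (log2 -1.03, adjusted p = 0.0156).

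On the large subunit side, NOG1, a GTPase of the nuclear pre-60S particle, had 240.5 and 175 CPM (15 min) with 157 and 201 CPM (20 min), against 308 and 326 CPM (0 min) with 279.9 and 290.4 CPM (5 min). All 4 later libraries were below all 4 earlier ones (log2 -0.64, SE 0.11, adjusted p = 0.002). RLP7, for processing of the spacer before 25S rRNA, averaged 336 ± 23.2 CPM at 15 and 20 min and 486 ± 56.2 CPM at 0 and 5 min (log2 -0.54, adjusted p = 0.00201). RPF2 and RRS1, which place the 5S particle, fell by 0.58 (adjusted p = 0.00364) and 0.68 (adjusted p = 0.0125) on the log2 scale. With 1 library left out, 5 to 22 small subunit and 14 to 36 large subunit genes were called; with 1 culture left out, 3 (either culture) and 1 to 5.

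Ribosomal protein genes, whose products these factors assemble, gave no calls. None of 56 small subunit and none of 81 large subunit ribosomal protein genes was called, with medians of -0.02 and -0.03, though many of them are near-identical pairs whose shared reads are not counted. Of 24 RNA polymerase I and III genes 1 fell, RPA43, a polymerase I subunit (log2 -0.45, adjusted p = 0.0453); the list median was -0.31. Translation factors (33 tested), proteasome (36), respiratory chain and ATP synthase (32), amino acid synthesis under Gcn4 (42) and histone genes (10) had no calls. Iron uptake genes under Aft1 had no calls of 19 and a median of -0.33; AFT1, their activator, was at 97.1 ± 26.8 CPM at 15 and 20 min and 141 ± 32.9 CPM at 0 and 5 min (log2 -0.55, adjusted p = 0.0776).

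Other genes that fell include AAH1, adenine deaminase, at 137 and 107 CPM (15 min) with 147 and 86.5 CPM (20 min), against 249 and 203 CPM (0 min) with 217 and 182 CPM (5 min) (log2 -0.83, SE 0.13, adjusted p = 0.00119). The groups did not overlap. PHM6, a phosphate-responsive gene of unknown function, had the largest fall of the called genes, at 9.76 ± 3.41 CPM at 15 and 20 min and 24.0 ± 2.31 CPM at 0 and 5 min (log2 -1.27, adjusted p = 0.0275). It was the only call among 19 tested phosphate genes under Pho4, and was lost when any 1 of 6 of the 8 libraries was left out. OPI1, the repressor of phospholipid synthesis genes, had log2 -0.93 (adjusted p = 0.049). FAF1, EFG1, BMT5 and RNT1, which act in rRNA processing or methylation but are in neither assembly list, fell by 0.87, 0.75, 0.86 and 0.69 on the log2 scale (adjusted p 0.002 to 0.0332).

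Of the 126 called genes, 54 were in no list, 25 higher and 29 lower. Among the larger rises outside the lists were RTC3 (log2 1.18, adjusted p = 0.00441), AIM17 (1.17, adjusted p = 0.0174) and SUR1, a subunit of a sphingolipid mannosyltransferase (1.03, adjusted p = 0.0386). PRB1 averaged 134 ± 22.4 CPM at 15 and 20 min and 73.5 ± 21.8 CPM at 0 and 5 min (log2 0.87, adjusted p = 0.00377), and RIE1, an RNA-binding protein, had log2 0.86 (adjusted p = 0.00646).

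The promoter elements shown above differed in share between the called genes and all genes tested. These are descriptions, with no test, of letter matches on either strand in the 300 base window of 4821 genes with a promoter. AGGGG was present in 62.8% of the 43 called risers, in all 8 called risers of the trehalose, glycogen and general stress lists, in 8.43% of the 83 called fallers and in 22.6% of all. PAC was present in 85.5% of called fallers, in 96.0% of the 50 called assembly genes and in 20.0% of all. RRPE was present in 69.9% of called fallers, in 88.0% of the called assembly genes and in 11.1% of all, and both PAC and RRPE in 66.3%, 84.0% and 5.25%. Outside the assembly lists, PAC was present in 69.7% of the other 33 called fallers and RRPE in 42.4%. The general stress list holds genes under Msn2 and Msn4, which bind AGGGG, and assembly genes often carry PAC and RRPE. Shares among uncalled members of these lists were not computed. For listed genes, list membership and being called therefore cannot be told apart. The Cup2 site was present in 9.3% of called risers, 21.7% of called fallers and 19.4% of all. The window used for GFA1, a called riser with 1 match, is that of the reference gene on chromosome XI. It is not the CUP1 promoter that drives the array.

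Over the time course of the array strain the called sets ran in opposite directions. The median log2 change against 0 min of the 43 risers was 0.35 at 5 min, 0.70 at 10 min, 0.85 at 15 min, 0.91 at 20 min, 0.87 at 25 min, 0.93 at 30 min, 0.48 at 45 min and 0.50 at 60 min. That of the 83 fallers was -0.19, -0.52, -0.58, -0.62, -0.40, -0.38, -0.10 and -0.03 at the same times. The 0, 5, 15 and 20 min libraries chose these genes and every value is set against 0 min, so these medians are descriptions with no test. For the pooled 15 and 20 min libraries, the median over genes of the fitted change against 0 min alone was 0.93 for risers and -0.61 for fallers. Against 5 min alone it was 0.53 and -0.44.

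**Figure D4:**
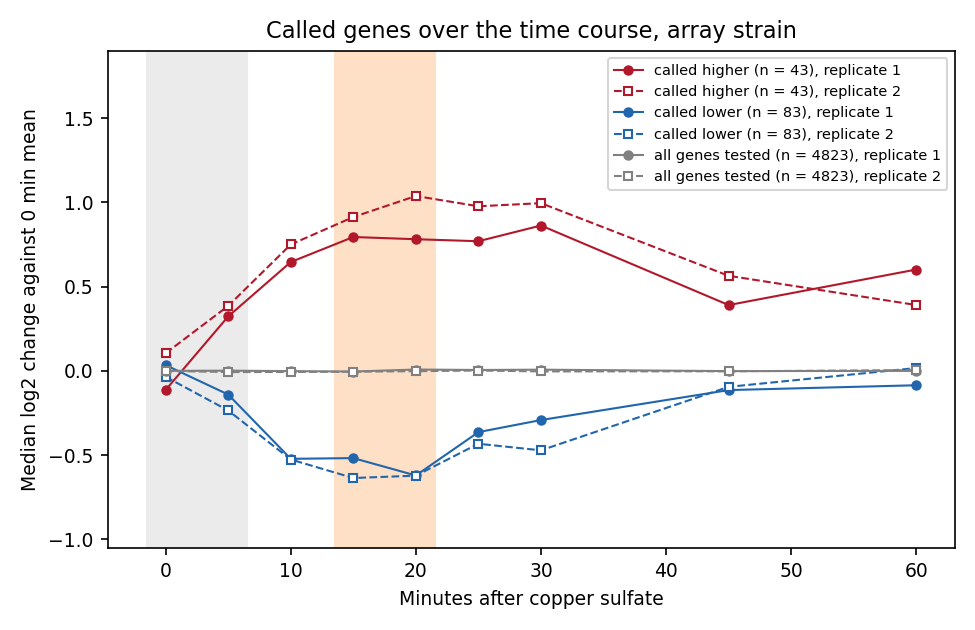
Median log2 change against the mean of the 0 min libraries (vertical axis) over minutes after copper sulfate, for the 43 genes called higher (red), the 83 called lower (blue) and all 4823 tested (grey), with 1 line for each array replicate. The orange band marks 15 and 20 min and the grey band 0 and 5 min; from 5 min on both red lines stay above 0, while both blue lines are at -0.62 at 20 min and at -0.09 (replicate 1) and 0.02 (replicate 2) at 60 min.

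WT was compared over the same times in a fit of all 37 libraries, in which 399 of 4995 genes were called in WT (7.99%), 155 higher (3.1%) and 244 lower (4.88%). Leaving out 1 WT library gave 228 (without 20 min replicate 2), 264 (without 15 min replicate 2) and up to 717 (without 5 min replicate 2). The 3 WT libraries at 0 min stood apart from each other, with chi-square per degree of freedom of 8.49 to 35.3 in their pairs, against 1.61 in the array pair at 0 min. WT 0 min replicate 1 was the shallowest of the 37 libraries, with 305028 gene counts, and without it 413 genes were called in WT. Of the 126 genes called in the array strain, 91 were also called in WT in the same direction (72.2%), which is 23.5% of the 388 genes called in WT and tested in both. In 123 of the 126 the direction was the same in WT (97.6%), beside 61.5% of all 4823 genes. No gene differed in response between the strains by edgeR's interaction test (0 of 4995; 290 had an unadjusted p under 0.05, and DESeq2 called 1, GFA1), which does not show that the responses were alike.

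For GFA1 the change was 2.10 in the array strain and 0.14 in WT (log2, same fit), a difference of 1.96 (SE 0.44, adjusted p = 0.232). When culture was added as a replicate block the difference was called (2.22, SE 0.33, adjusted p = 0.000644). It was also called when WT 0 min replicate 3, at 32.8 CPM, was left out (2.24, SE 0.33, adjusted p = 0.000497). WT replicate 3 has no library at any other time, so the block fits that library exactly. The calls from the block and from leaving that library out are therefore not separate support for a strain difference. WT GFA1 was at 146 to 211 CPM at 15 and 20 min, and spread from 32.8 to 343 CPM at 0 and 5 min. SNZ1, a vitamin B6 synthesis gene, had the smallest p: its log2 change was -0.13 in the array strain and 1.06 in WT (difference -1.19, SE 0.25, adjusted p = 0.153; 0.0293 without WT 5 min replicate 2).

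TSL1 had a log2 change of 1.59 in the array strain and 1.72 in WT. ENP2 had -0.67 in the array strain and -1.12 in WT (difference 0.45, adjusted p = 0.801), and LTV1 had -0.65 in the array strain and -1.11 in WT (difference 0.46, adjusted p = 0.803). The assembly lists had medians of -0.34 (small subunit) and -0.39 (large subunit) in the array strain and of -0.67 (small subunit) and -0.70 (large subunit) in WT, with no gene of either called for a strain difference. In the same fit the structural wall list had a median of 0.06 in the array strain and 0.63 in WT. Trehalose and glycogen had 0.60 and 0.68, and general stress 0.56 and 0.90. WT had 8, 9 and 17 genes of these 3 lists called higher, and no gene of them was called for a strain difference.

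**Figure D5:**
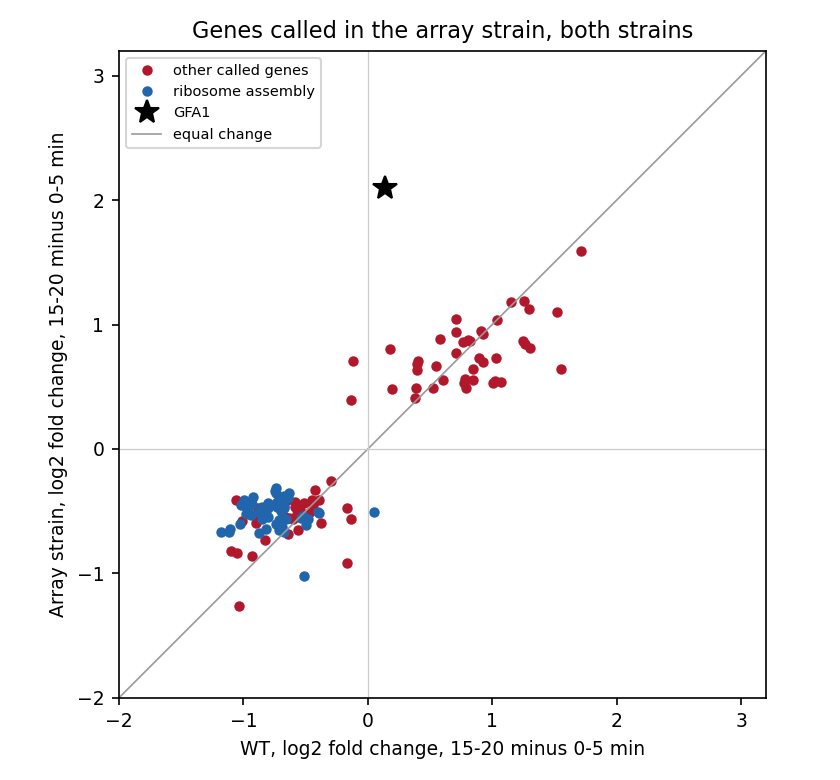
Log2 fold change of 15 and 20 min over 0 and 5 min in the array strain (vertical axis) against that in WT (horizontal axis), from the fit of all 37 libraries, for the 126 genes called in the array strain, with assembly genes in blue and GFA1 as a star. The grey line marks equal change; GFA1 lies at 2.10 in the array strain and 0.14 in WT, and 123 of the 126 genes have the same sign in both.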

How the data were processed

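RNA of 37 libraries was measured by QuantSeq 3′-end sequencing. The deposited values are raw read counts per gene in 1 column per library. Per the submitters' processing notes the tools were HTSeq 2.0.2, SAMtools 1.10, STAR 2.7.10a and FastQC 0.11.9, and the build R64; the sources used here give no order, settings or strand mode. No molecular identifiers are mentioned, so PCR copies count as reads. Of 6464 listed genes, 6461 matched the annotation of the reference. HTSeq's 5 summary entries (46.6% to 52.7% of listed reads in the 8 libraries compared, such as reads in no gene or aligned at several places) were left out of library sizes and tests.

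Counts were tested with the quasi-likelihood F test of edgeR 4.0.16 in R 4.3.3 (TMM scaling, low counts removed by filterByExpr with its minimum set to 10, Benjamini-Hochberg adjustment over all genes tested, called at an adjusted p under 0.05). The array comparison used the 18 array libraries in 5 time windows (13 residual degrees of freedom). WT and the strain difference used all 37 libraries in 10 groups (27 residual degrees of freedom), and 5 against 0 min and 20 against 15 min used 9 time groups (9 residual degrees of freedom). CPM values are counts scaled to a common library size after TMM. DESeq2 1.42.0 and limma 3.58.1 (voom) were alternatives, as were other scalings, filters, groupings, baselines, a culture block, and leaving out each library or culture. An adjusted p that DESeq2 did not give was left out. The scripts were tested on simulated counts. Lists are described by counts and medians. The genes named are GFA1, CUP1 and CRS5, the 15 largest rises and 15 largest falls that were called with at least 10 CPM and groups that did not overlap, up to 4 genes of each list by smallest p, and the smallest p in the strain and time comparisons; SOD1, other list members and genes outside this rule were chosen after their values were seen. The members, gene lists and tests were chosen with earlier results of these data known.

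Replicate pairs differed beyond sampling noise (chi-square per degree of freedom 1.61 to 2.43 in the 4 array pairs compared), so none was counted once. By the growth note each culture was sampled repeatedly, and a replicate number was taken as 1 culture: the difference between replicates 1 and 2 correlated between times at 0.110 to 0.201 in all 6 pairs among 0, 5, 15 and 20 min. Over all 36 pairs of times it was over 0.1 in 16, with a median of 0.08 and a lowest value of -0.166.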

Additional observations from a re-analysis of the deposited data

Results flagged for a closer look

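The 45 called genes that the naming rule gives were examined in both groups of 4 libraries for a library far from the other 3 (the gap to the nearest library over the range, against Dixon's 95% critical value). Of 90 groups 5 had one. For 4 independent normal values the rule gives about 1 in 20 groups, or 4.5 of 90. The libraries here are 2 cultures at 2 times, and many of the genes were chosen for groups that did not overlap. That rate therefore need not hold here, and the counts are a description. PRB1 had 167 CPM in 20 min replicate 2, while the other 3 libraries at 15 and 20 min lay between 120.2 and 126 CPM. ENP2 had 477 CPM in 0 min replicate 1, and the next of the 4 libraries at 0 and 5 min had 415 CPM. RPF2 had 296 CPM in the same library, and the next had 239.8 CPM. PIR1 had 6.61 CPM in 0 min replicate 2, and the next had 15.6 CPM. RIE1 had 84.0 CPM in 5 min replicate 2, and the next had 58.3 CPM. The cause was not tested.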

How the results depend on the processing

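The count of 126 called genes was 116 with DESeq2-type size factors, 124 with a minimum count of 1, 121 with voom and 96 with only the 8 libraries compared. It was 81 with DESeq2 (16 of the 126 had no adjusted p), 2 with all 37 libraries, 2 against 5 min alone, 20 for 15 min alone and 43 for 20 min alone. Among fits added after seeing the data, it was 24 with all libraries but WT 0 min replicate 1 and 62 with all but the 3 WT 0 min libraries. The common biological coefficient of variation was 9.60% in the array fit and 17.9% in the fit of all 37 libraries. Leaving out 1 library gave 46 to 164 (46 without 0 min replicate 1, 53 without 0 min replicate 2, 57 without 15 min replicate 2, 78 without 20 min replicate 2). Leaving out culture 1 or culture 2 gave 12 and 26. With culture as a replicate block 150 were called, all 126 among them; in WT the block gave 383 calls, with 309 of the 399 among them. Of 45 named called genes, fits under 26 alternatives kept the call 760 times and lost it 390 times. No direction changed, in fits that share libraries with the one that chose these genes. GFA1 kept the call in all 25 that held it. The strain difference had 0 calls, 1 with DESeq2 (GFA1), 1 with the replicate block, and 0 to 1 with a library or culture left out. WT had 399 calls, and 228 to 717 with a library left out (717 for WT 5 min replicate 2, 264 for WT 15 min replicate 2 and 228 for WT 20 min replicate 2). The 5 against 0 min comparison had 1 call, and 0 to 1 with a library left out; 20 against 15 min had 0 throughout. The causes of these differences were not tested. The count filter, and not the floor of 4.53 to 5.40 CPM, set which genes were tested. The main fit tested 4823 genes, and the fit with a minimum count of 1 tested 5545. Levels near the floor rest on few counts.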
